A study of Sus scrofa with 15 samples.

Results

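The genes described here move iron through the body, store it, or keep it away from microbes. They were chosen by name: HAMP (hepcidin), SLC40A1 (ferroportin), TFRC and TFR2 (transferrin receptors), TF (transferrin), FTH1 (ferritin heavy chain), SLC39A14 (ZIP14), LCN2 (lipocalin 2), HPX (hemopexin) and CP (ceruloplasmin). Of these 10 genes, 9 had a row among the 31908 Ensembl pig genes of the count table, and all 9 were abundant enough to be tested. No row was paired with the symbol FTH1, so it was skipped. The samples were livers of male piglets (Duroc x Large White x Landrace) in the growing stage. The LPS group was injected intraperitoneally with 80 μg/kg of lipopolysaccharide (LPS), an outer membrane component of Gram-negative bacteria, and the CON group with an equal dose of sterile saline, and liver was taken 4 h later. Each group had 3 input libraries, made from sonicated polyadenylated RNA that was set aside before the m6A antibody step. The antibody libraries were not analysed here. The labels do not say whether a library came from 1 piglet or from a pool, so p-values measure the spread between these libraries only.

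The liver is both the source of hepcidin and a large iron store. Hepcidin is a peptide hormone that binds ferroportin, the only known exporter of iron from cells, and causes its degradation, so that iron stays in macrophages and hepatocytes. Its gene is known to be driven by bone morphogenetic protein (BMP) signaling through SMAD proteins when iron is plentiful, and by interleukin-6 through STAT3 in inflammation. Transferrin carries iron in plasma, ceruloplasmin oxidizes it, hemopexin captures free heme, ZIP14 brings non-transferrin iron into hepatocytes, and lipocalin 2 binds the siderophores with which bacteria scavenge iron. Lowering of plasma iron in infection is a recognised part of the acute phase response.

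In these livers LCN2 was the only one of the 9 genes that passed the test with every library included, rising from 4.30 ± 1.17 to 90.8 ± 53.6 CPM (mean ± SD, n = 3), the read count scaled to library size. HAMP and SLC40A1 had the widest spread of the 9 genes between LPS libraries. In LPS replicates 1 and 3 HAMP lay above every CON library and SLC40A1 below every CON library, whereas LPS replicate 2 held the lowest HAMP value of all 6 libraries. The abundant plasma proteins TF and HPX, and CP, did not pass the test. CPM values were scaled by the trimmed mean of M values (TMM). A gene was called when edgeR's quasi-likelihood test, with Benjamini-Hochberg adjustment, gave an adjusted p under 0.05 together with a change of more than 1.5-fold. Fold changes are LPS over CON on the log2 scale, with their standard error (SE).

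CON libraries held 5927348 to 10351491 counts and LPS libraries 4348478 to 19967417. LPS replicate 2 was nearer to the CON libraries than the other LPS libraries were. Its Pearson correlation with the CON libraries, across the log2 CPM of 12774 tested genes, was 0.923 to 0.945, against 0.853 to 0.899 for LPS replicate 1 and 0.837 to 0.874 for LPS replicate 3. Within the LPS group the correlations alone did not single it out. LPS replicate 1 correlated as closely with LPS replicate 2 (0.907) as with LPS replicate 3 (0.903), and LPS replicates 2 and 3 correlated at 0.852. The number of called genes nonetheless moved most when LPS replicate 2 was left out, as given below. The labels give no reason for its position, and whether it reflects a weaker response or an exchanged label was not tested. Its LCN2 value was above every CON library (29.5 against 2.95 to 5.00 CPM). Its HAMP value was below every CON library (21.4 against 245.4 to 605.5 CPM). Results on the 9 genes are given with and without it, and the fits without it bear that doubt. With all 6 libraries 0.0548% of tested genes were called higher (7 genes) and 0% lower. At an unadjusted edgeR p below 0.05, 6.18% were higher (790 genes) and 6.33% lower (809 genes). Counts at this p in the gene lists below are to be read against these shares. Leaving out LPS replicate 2, 3.76% of 13632 tested genes were called higher and 3.45% lower. Liver identity was clear from the hepatocyte marker genes, which summed to 56930 to 77140 CPM in CON and 50650 to 102000 CPM in LPS libraries. Most of each sum was ALB, APOA1 and FGB, and it is no measure of hepatocyte content. FGB alone was at 44960 CPM in LPS replicate 3, against 8098 to 12720 CPM in CON. Of the 12 markers, 1 had all LPS values above CON and 4, among them ALB, had all below.

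Per kilobase of the deposited gene length, the levels of the 9 genes covered more than 3 orders of magnitude. In the CON group TF (3579 ± 537 CPM per kb, SD, n = 3) and HPX (3167 ± 575 CPM per kb) were the most abundant, at ranks 11 and 12 of 12774 tested genes. They did not differ from each other beyond their spread. HAMP (180 ± 93.5 CPM per kb), TFR2 (136 ± 44.6 CPM per kb) and CP (106 ± 43.8 CPM per kb) followed and overlapped one another. SLC40A1 (24.4 ± 11.9 CPM per kb) and SLC39A14 (20.3 ± 5.01 CPM per kb) also overlapped, and both lay above TFRC (6.31 ± 0.268 CPM per kb) and LCN2 (2.29 ± 0.623 CPM per kb). In the LPS group HPX (3119 ± 422 CPM per kb) and TF (2897 ± 1136 CPM per kb) still led with overlapping values. HAMP (660 ± 597 CPM per kb) came next by mean, with values on both sides of CP (110 ± 32.2 CPM per kb) and TFR2 (104 ± 40.8 CPM per kb). LCN2 (48.4 ± 28.6 CPM per kb) stood at rank 832 of the tested genes, against 7701 in CON, and overlapped SLC39A14 (42.5 ± 31.1 CPM per kb). SLC40A1 (11.5 ± 15.4 CPM per kb) and TFRC (4.27 ± 2.57 CPM per kb) had the lowest means and overlapped. The 9 genes together took 2.32 ± 0.30% of the counts of a CON library and 1.88 ± 0.16% of an LPS library (n = 3 each). TF and HPX supplied 89.5 ± 1.5% and 83.6 ± 4.9% of those counts.

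**Figure D1:**
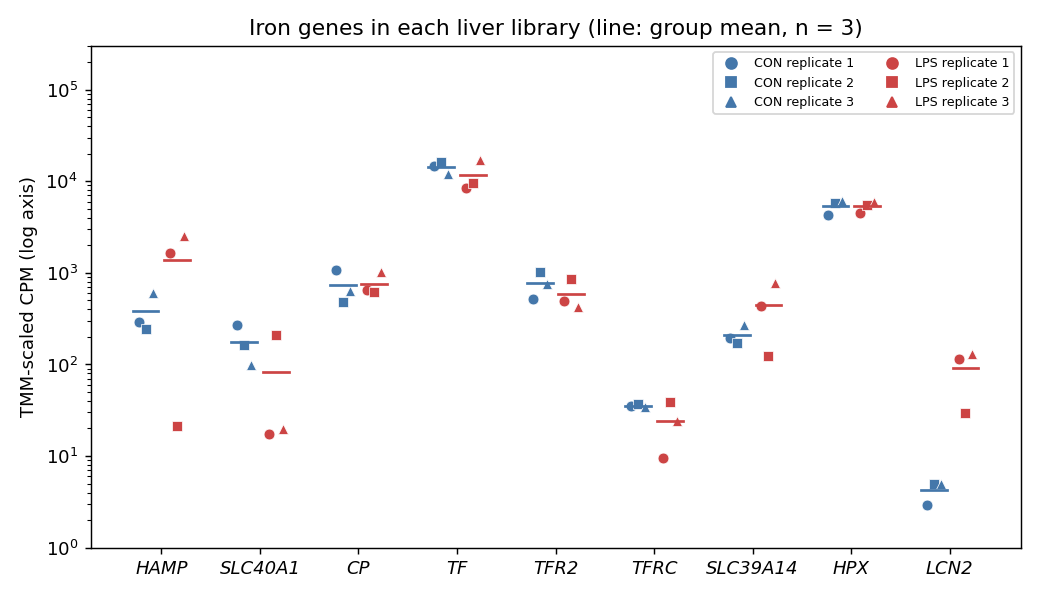
TMM-scaled CPM (log axis) of each of the 9 genes in every library, with circles, squares and triangles for replicates 1, 2 and 3 and a line at the group mean (n = 3). HAMP ran from 21.4 to 2499 CPM among LPS libraries, while HPX stayed between 4293 and 6136 CPM in all 6.

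HAMP encodes hepcidin (ENSSSCG00000035436, chromosome 6, 44784159 to 44787307, plus strand; coordinates here and below are those of the deposited table, whose genome build was not given in the sources used here). Its level was 287.1, 245.4 and 605.5 CPM in CON replicates 1, 2 and 3, and 1648, 21.4 and 2499 CPM in LPS replicates 1, 2 and 3. LPS replicates 1 and 3 were above all CON libraries and LPS replicate 2 was below all of them, so the groups overlapped. The low value lay beyond counting error, as LPS replicate 2 had 131 HAMP reads and an exact Poisson interval of 17.9 to 25.4 CPM. With all 6 libraries the fold change was 1.87 (SE 1.13) and was not called (edgeR adjusted p = 0.532). When LPS replicate 2 was left out it was 2.45 (SE 0.46) and was called higher (edgeR adjusted p = 0.0116). It was also called with all 6 libraries and no filter on low counts (1.84, edgeR adjusted p = 0.00182), whereas limma-voom gave 0.33, and 1.16 remained without LPS replicate 3. Adjusted p ran from 0.00182 to 0.952 over 13 alternative settings.

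The highest and the lowest LPS value of HAMP differed 116.6-fold, against 2.47-fold within the CON group. Measured on log2(CPM + 1), only 4 of the 12774 tested genes had a wider range among the 3 LPS libraries. The range was 6.80 for HAMP against a median of 0.888 over all tested genes. USF2, the gene that ends 565 bases before HAMP on the same strand, was even across libraries at 131, 132.6 and 116.2 CPM in CON and 150.4, 116 and 108.2 CPM in LPS (fold change -0.02, SE 0.29, edgeR adjusted p = 0.988). USF2 is not one of the 9 genes and is shown for its position.

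The BMP, SMAD and HFE arm of hepcidin control, HAMP itself included, was described by 25 listed genes, of which 22 were tested. None was called, and at an unadjusted edgeR p below 0.05, 2 were higher and 1 lower. BMP6, the ligand that liver endothelial cells release when iron is high, was at 29.1, 41.2 and 62.8 CPM in CON and 79.6, 106.7 and 110.5 CPM in LPS. Its groups did not overlap, and LPS replicate 2 was as high as the other LPS libraries. Its fold change was 1.16 (SE 0.36, edgeR adjusted p = 0.246), and 1.10 (SE 0.39, edgeR adjusted p = 0.109) without that library. INHBB, which encodes the activin B subunit, another ligand able to drive hepcidin, was at 5.45, 7.03 and 3.76 CPM in CON and 12.9, 14.4 and 76.3 CPM in LPS. Its groups did not overlap either, and its fold change was 2.69 (SE 0.69, edgeR adjusted p = 0.202). It was called higher when LPS replicate 2 was left out (3.07, SE 0.63, edgeR adjusted p = 0.0211), and with all 6 libraries by DESeq2 or with no filter on low counts. Across the table, the 3 LPS values lay above the 3 CON values in 6.52% of tested genes (833) and below them in 9.8% (1252).

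HFE, the MHC-like protein that senses transferrin saturation and is mutated in hereditary hemochromatosis, was at 6.56 to 10.1 CPM in CON and 2.84, 4.74 and 2.46 CPM in LPS. The LPS values were all below the CON values, with a fold change of -1.37 (SE 0.41, edgeR adjusted p = 0.236). Without LPS replicate 2, HFE passed the test as lower (-1.70, SE 0.46, edgeR adjusted p = 0.0458). TMPRSS6, the protease that restrains hepcidin by cleaving hemojuvelin, was at 82.0, 153.3 and 132.1 CPM in CON and 67.6, 99.1 and 44.7 CPM in LPS. Here LPS replicates 1 and 3 lay below CON and LPS replicate 2 within it (fold change -0.80, SE 0.39, edgeR adjusted p = 0.440). HJV, hemojuvelin itself, a BMP coreceptor, was at 37.9, 63.5 and 1.78 CPM in LPS replicates 1, 2 and 3 against 24.7 to 66.3 CPM in CON, so that a single LPS library, replicate 3, was low. Its fold change was -0.51 (SE 0.90, edgeR adjusted p = 0.847). The BMP target genes ID1 and SMAD7 had fold changes of -0.57 (SE 0.39, edgeR adjusted p = 0.581) and -0.01 (SE 0.41, edgeR adjusted p = 0.996). Neither was called, also when LPS replicate 2 was left out.

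In the interleukin-6 and STAT3 arm 7 of 8 listed genes were tested and none was called, with 2 higher and 0 lower at an unadjusted edgeR p below 0.05. SOCS3, a STAT3 target that feeds back on the receptor, was at 17.5, 45.2 and 27.6 CPM in CON and 289, 18.8 and 627 CPM in LPS. As for HAMP, LPS replicates 1 and 3 were far above the CON libraries, but LPS replicate 2 was within their range. This gave a fold change of 3.38 (SE 0.98, edgeR adjusted p = 0.230), and 3.94 (SE 0.49, edgeR adjusted p = 0.00184, called higher) without LPS replicate 2. STAT3 was at 252.4, 265.7 and 243.3 CPM in CON and 431.1, 169.5 and 878 CPM in LPS. LPS replicate 2 was again the lowest of the 6 libraries, and the fold change was 0.96 (SE 0.51, edgeR adjusted p = 0.480). JAK1, a kinase of the receptor complex, was at 118 to 138.1 CPM in CON and 199.3, 127.6 and 519.2 CPM in LPS (fold change 1.14, SE 0.49, edgeR adjusted p = 0.376). The receptor IL6R had a fold change of 0.74 (SE 0.33, edgeR adjusted p = 0.401). TYK2, another kinase of this group, went the other way at 44.3 to 56.1 CPM in CON and 25.7, 44.2 and 31.8 CPM in LPS (fold change -0.60, SE 0.31, edgeR adjusted p = 0.468). IL6 itself, named here after its values were seen, fell below the filter on low counts, with 2, 0 and 1 reads in CON and 2, 4 and 50 reads in LPS replicates 1, 2 and 3.

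**Figure D2:**
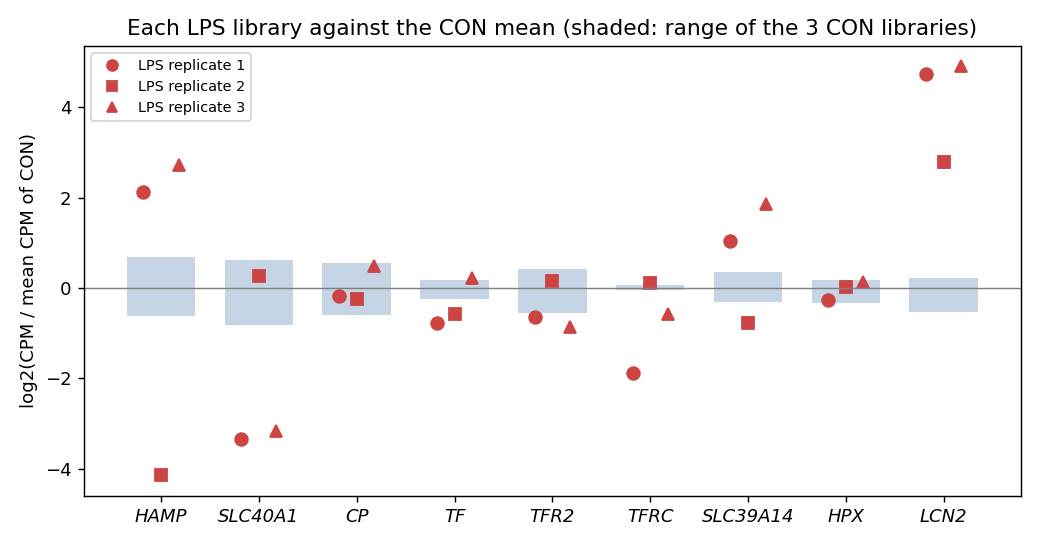
The log2 ratio of each LPS library (circle, square and triangle for replicates 1, 2 and 3) to the mean CPM of the CON group, for each of the 9 genes, with the range of the 3 CON libraries shaded. For HAMP the LPS ratios were 2.12, -4.15 and 2.72, and for LCN2 all 3 lay above the shaded range.

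SLC40A1 encodes ferroportin (ENSSSCG00000027157, chromosome 15, 94140725 to 94168210, minus strand). It is the sole exporter of cellular iron and is abundant in macrophages that recycle red blood cells. Its level was 269.8, 161.2 and 99.5 CPM in CON and 17.4, 211.4 and 19.7 CPM in LPS. LPS replicates 1 and 3 were below every CON library, while LPS replicate 2 was inside the CON range. The fold change was -1.10 (SE 0.89, edgeR adjusted p = 0.652) and was not called. Leaving LPS replicate 2 out gave -3.24 (SE 0.49, edgeR adjusted p = 0.0043), called lower. The change was -0.66, -0.61 and -0.61 when CON replicate 1, LPS replicate 1 or LPS replicate 3 was left out instead. In LPS replicate 1 the value rested on 80 reads, with an exact Poisson interval of 13.8 to 21.7 CPM.

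The 12 Kupffer cell or macrophage markers, which include the macrophage hemoglobin receptor CD163, summed to 2027, 2087 and 3271 CPM in CON and 1378, 2325 and 1891 CPM in LPS. The sum, most of it from C1QA, C1QB and C1QC, ordered the LPS libraries as SLC40A1 did, with replicates 1 and 3 below CON and replicate 2 within it. Single markers did not all share that order. MARCO, a scavenger receptor, was at 177.7, 22.1 and 81.5 CPM in LPS replicates 1, 2 and 3 against 69.7 to 221.7 CPM in CON, and LPS replicate 2 was also below every CON library for VSIG4, TIMD4, MRC1, MSR1 and CD68. All 12 markers were tested, all had negative fold changes (median -0.51, 0 called, 4 at an unadjusted edgeR p below 0.05), and none was at 0 in every library. CLEC4F, a Kupffer cell lectin, was at 13.3 to 18.4 CPM in CON and 0.218, 15.1 and 5.94 CPM in LPS. Relative to the CON mean, the log2 ratio of SLC40A1 was -3.34 and -3.17 in LPS replicates 1 and 3. In bulk liver, fewer cells of a type and less RNA per cell cannot be told apart, and the part of these markers in the SLC40A1 values was not tested.

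Set against each other, HAMP and SLC40A1 were at opposite ends in the LPS libraries. The ratio of HAMP to SLC40A1 CPM was 1.06, 1.52 and 6.09 in the CON libraries and 94.5, 0.101 and 127 in the LPS libraries. The ratios of LPS replicates 1 and 3 thus exceeded every CON ratio, and LPS replicate 2 was below every CON ratio. With 3 libraries a group, an exact permutation test cannot give a two-sided p below 0.1, and none was run on the ratio.

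**Figure D3:**
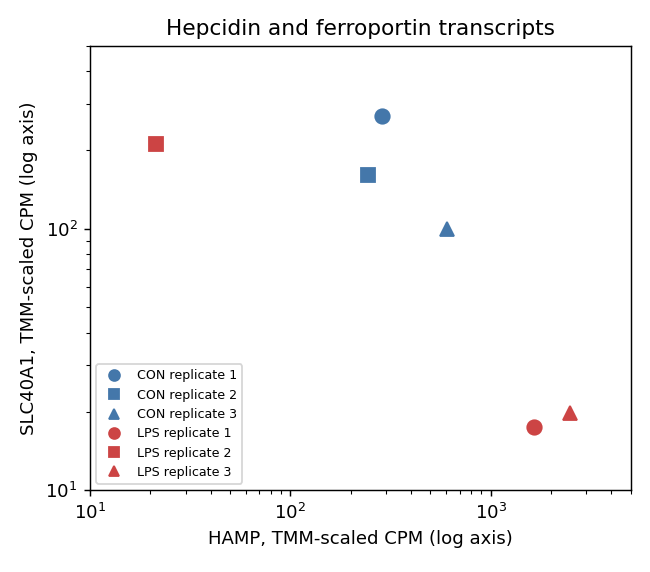
SLC40A1 against HAMP in the 6 libraries, both in TMM-scaled CPM on log axes, with blue symbols for CON and red for LPS and a symbol shape for each replicate number. LPS replicates 1 and 3 lie at the lower right (1648 and 2499 CPM of HAMP), LPS replicate 2 at the upper left. The CON libraries lie in between on the HAMP axis. On the SLC40A1 axis LPS replicate 2 (211.4 CPM) lies within the CON range (99.5 to 269.8 CPM).

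CP encodes ceruloplasmin, the copper-bearing ferroxidase that loads exported iron onto transferrin (ENSSSCG00000011700, chromosome 13, 89396685 to 89463538, minus strand). It was at 1070, 483.8 and 641.2 CPM in CON and 645.6, 619.6 and 1018 CPM in LPS, with every LPS library inside the CON range. The fold change was 0.06 (SE 0.39, edgeR adjusted p = 0.970), and 0.19 (SE 0.43, edgeR adjusted p = 0.827) without LPS replicate 2. Its sign turned under scaling to total counts, and so no direction is given. The gene overlaps HPS3 on the other strand, at a mean of 10 CPM in CON and 9.08 CPM in LPS. The other ferroxidases, HEPH and HEPHL1, had at most 2 reads in any library and were not tested.

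TF encodes transferrin, made by hepatocytes (ENSSSCG00000011640, chromosome 13, 74930655 to 74970599, plus strand). It was at 14830, 16350 and 12080 CPM in CON and 8434, 9668 and 16910 CPM in LPS. LPS replicates 1 and 2 were below the CON libraries and LPS replicate 3 was above them. The fold change of -0.31 (SE 0.37, edgeR adjusted p = 0.773) was not called, nor was that of -0.18 (SE 0.45, edgeR adjusted p = 0.845) without LPS replicate 2. It was -0.66 without LPS replicate 3 and -0.10 without LPS replicate 1. Here replicate 3, the most deeply counted library, was the highest LPS library, but its place above CON depended on the scaling. Its TMM factor was 0.7352, against 0.9794 to 1.114 in the other libraries. As a share of unscaled counts, TF was 0.89, 1.07 and 1.24% in LPS replicates 1, 2 and 3 and 1.18 to 1.77% in CON. By that share replicate 3 was within the CON range. Scaling to total counts gave a fold change of -0.51 (SE 0.31, edgeR adjusted p = 0.618). The RefSeq gene table for the pig gives the symbol TF to 2 genes. An unnamed row upstream on the same strand (ENSSSCG00000028203) was at 579.2, 690.2 and 748.7 CPM in CON and 357.8, 389.9 and 695 CPM in LPS, the same order of the LPS libraries as TF. Whether reads were shared between these rows was not tested.

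TFR2, the hepatocyte receptor that helps sense iron-bound transferrin, had the highest per-length level of the uptake receptors (ENSSSCG00000007671, chromosome 3, 8539318 to 8578884, minus strand). It was at 524.3, 1028 and 753.4 CPM in CON and 490.6, 851.9 and 422 CPM in LPS. LPS replicates 1 and 3 lay just below the lowest CON library, and LPS replicate 2 lay within the CON range. TFR2 had a fold change of -0.39 (SE 0.39, edgeR adjusted p = 0.730), and -0.75 (SE 0.40, edgeR adjusted p = 0.281) without LPS replicate 2. The change was -0.12 without CON replicate 2, -0.60 without CON replicate 1 and -0.18 without LPS replicate 3.

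TFRC, the general transferrin receptor through which dividing and iron-poor cells take up iron, was the steadiest of the 9 genes among CON libraries (ENSSSCG00000011848, chromosome 13, 133970594 to 134000278, plus strand). It was at 34.9, 37.3 and 34.6 CPM in CON and 9.59, 38.6 and 24.0 CPM in LPS. Both LPS replicate 1 and LPS replicate 3 were below the CON libraries. LPS replicate 2 was nominally above them, but its exact Poisson interval of 33.8 to 43.9 CPM covered all 3 CON values. The lowest value, in LPS replicate 1, rested on 44 reads (6.97 to 12.9 CPM). The fold change was -0.56 (SE 0.44, edgeR adjusted p = 0.643), and -1.05 (SE 0.42, edgeR adjusted p = 0.151) without LPS replicate 2. It was -0.18 without LPS replicate 1. The summed markers of erythroid cells, which are rich in this receptor, were higher in LPS replicates 1 and 3 at 258.4 and 375.6 CPM. The sum was 103.1 CPM in LPS replicate 2 and 80.4 to 107.8 CPM in CON. Most of each sum was hemoglobin HBB, at 192.1, 72.6 and 245.5 CPM in LPS replicates 1, 2 and 3. GATA1 and KLF1, also on the erythroid list, had at most 6 reads in any library and were not tested. Only 8 of 11 listed erythroid markers had a row and 4 were tested, all 4 with positive fold changes and none called (3 at an unadjusted edgeR p below 0.05). Their part in the TFRC values was not tested.

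SLC39A14 encodes ZIP14, which brings non-transferrin-bound iron, zinc and manganese into hepatocytes (ENSSSCG00000032622, chromosome 14, 6639206 to 6803670, plus strand). It was at 194.8, 170.4 and 270.5 CPM in CON and 436.1, 122.9 and 769.9 CPM in LPS. Just as for HAMP, LPS replicates 1 and 3 were above all CON libraries and LPS replicate 2 was below all of them. With all libraries the fold change was 1.06 (SE 0.56) and was not called (edgeR adjusted p = 0.474). Without LPS replicate 2, it was 1.51 (SE 0.39) and was called higher (edgeR adjusted p = 0.0381). When LPS replicate 3 was left out instead, it was 0.42 (SE 0.48, edgeR adjusted p = 0.794). SLC39A8, the close relative ZIP8, was at 21, 14.4 and 17.3 CPM in CON and 24.2, 30.3 and 24.7 CPM in LPS. Its 3 LPS values, that of replicate 2 included, were above the CON values, with a fold change of 0.59 (SE 0.30, edgeR adjusted p = 0.471). SLC11A2 (DMT1), which moves ferrous iron out of endosomes, had a fold change of 0.54 (SE 0.37, edgeR adjusted p = 0.593).

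Among the 8 tested genes of uptake and reduction none was called, and 1 was higher and 1 lower at an unadjusted edgeR p below 0.05, both of them ferrireductases. STEAP4 was at 36.9, 84.5 and 35.9 CPM in CON and 298.9, 116 and 1515 CPM in LPS. The groups did not overlap, and the fold change was 3.62 (SE 0.89, edgeR adjusted p = 0.193), or 4.12 (SE 0.67, edgeR adjusted p = 0.00855, called higher) without LPS replicate 2. STEAP3, the endosomal ferrireductase that works with TFRC, was at 55.2, 61.7 and 64.6 CPM in CON and 39.0, 35.8 and 34.2 CPM in LPS. All LPS values were below the CON values and close to one another (fold change -0.74, SE 0.27, edgeR adjusted p = 0.322).

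Storage could be followed only through the genes with a row, since FTH1 had none. FTL, the ferritin light chain, was at 4312, 4941 and 4011 CPM in CON and 3258, 3193 and 4378 CPM in LPS (fold change -0.29, SE 0.32, edgeR adjusted p = 0.746). LPS replicate 3 was within the CON range and the other LPS libraries below it. NCOA4, the receptor for ferritin breakdown, and PCBP2, an iron chaperone, had fold changes of -0.46 (SE 0.34, edgeR adjusted p = 0.620) and 0.09 (SE 0.30, edgeR adjusted p = 0.932). ACO1, the cytosolic aconitase that becomes the iron regulatory protein IRP1 when iron is short, was at 83.7, 72.2 and 91.3 CPM in CON and 202.3, 114.8 and 388.9 CPM in LPS. Its groups did not overlap. ACO1 had a fold change of 1.52 (SE 0.44, edgeR adjusted p = 0.221), and 1.85 (SE 0.37, edgeR adjusted p = 0.0159, called higher) without LPS replicate 2. IREB2, which encodes the other iron regulatory protein, IRP2, and FBXL5, which targets it for degradation, each had a fold change of -0.09 (SE 0.32, edgeR adjusted p = 0.931, and SE 0.47, edgeR adjusted p = 0.957). Of 6 tested mitochondrial iron genes none was called, and none reached an unadjusted edgeR p below 0.05. The iron-sulfur cluster genes ISCU (fold change -0.54, SE 0.30) and NFS1 (fold change -0.43, SE 0.29) had all LPS values below the CON values. The importer SLC25A28, mitoferrin 2, had a fold change of 0.82 (SE 0.48).

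HPX encodes hemopexin, the plasma protein that binds free heme and delivers it to the liver (ENSSSCG00000014626, chromosome 9, 3288172 to 3297047, plus strand). It was the most even of the 9 genes among LPS libraries, at 4293, 5800 and 6136 CPM in CON and 4528, 5526 and 5927 CPM in LPS. Every LPS value lay inside the CON range. The fold change was -0.02 (SE 0.32, edgeR adjusted p = 0.989), and -0.05 (SE 0.40, edgeR adjusted p = 0.958) without LPS replicate 2. The sign turned under size factors of DESeq2, so it has no direction here. HMOX1, the inducible heme oxygenase that frees iron from heme, was at 339, 301.4 and 321.1 CPM in CON and 193, 283.5 and 598.6 CPM in LPS. Its LPS libraries lay on both sides of the CON libraries (fold change 0.16, SE 0.42, edgeR adjusted p = 0.906). HMOX2, the constitutive form, was at 93.5, 108.1 and 108.7 CPM in CON and 158.3, 141 and 178.5 CPM in LPS, with no overlap (fold change 0.62, SE 0.29, edgeR adjusted p = 0.415). CD163 had a fold change of -0.24 (SE 0.37, edgeR adjusted p = 0.827). The heme transporters FLVCR1, FLVCR2 and SLC48A1 had fold changes of 0.62 (SE 0.44), -0.45 (SE 0.28) and -0.32 (SE 0.37). Of the 7 tested genes of heme handling, 0 were called and 0 reached an unadjusted edgeR p below 0.05.

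LCN2 encodes lipocalin 2, which starves bacteria of iron by sequestering their siderophores (ENSSSCG00000005638, chromosome 1, 268609633 to 268614466, plus strand). It was at 2.95, 5.00 and 4.94 CPM in CON and 114.3, 29.5 and 128.6 CPM in LPS. The groups were far apart, and LPS replicate 2, although the lowest LPS library, was also above every CON library. LCN2 had a fold change of 4.41 (SE 0.58, edgeR adjusted p = 0.0379, called higher), and 4.83 (SE 0.38, edgeR adjusted p = 0.000281) without LPS replicate 2. The CON values rested on 32 to 50 reads per library. The size of the change was steady over 13 alternative settings, at 4.08 to 4.83, but the adjusted p ranged from 4.29e-19 to 0.543. The call was lost without CON replicate 1 (edgeR adjusted p = 0.543), CON replicate 2 (0.155), CON replicate 3 (0.196) or LPS replicate 1 (0.165). It was also lost when at least 10 counts were required in every library (edgeR adjusted p = 0.0578) and under limma-voom (adjusted p = 0.069). DESeq2 called 2.02% of genes higher and 1.15% lower, and LCN2 was the only one of the 9 genes among them. An unnamed row of the deposited table overlaps LCN2 on the same strand and had a mean of 7.72 CPM in CON and 14.6 CPM in LPS. How the authors assigned reads in that overlap was not given in the sources used here.

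LCN2 is made by hepatocytes in the acute phase and is also a granule protein of neutrophils. The 14 neutrophil markers with a row, of 19 listed, summed to 78.9, 79.8 and 141.6 CPM in the CON libraries, from the lowest to the highest, and to 226.1, 184.9 and 398.1 CPM in LPS replicates 1, 2 and 3. Of the 11 tested, 8 had positive fold changes (median 1.83), 6 were higher at an unadjusted edgeR p below 0.05, and 1 was called, S100A8, an alarmin of neutrophils. No marker was at 0 in every library, but MMP8, a neutrophil collagenase, was at 0 in all CON libraries and at 3.93, 0.818 and 18.5 CPM in LPS. Their part in the LCN2 values was not tested. LTF, lactoferrin, which binds free iron and stands in both the neutrophil and the siderophore lists, was at 0.268, 0 and 0.989 CPM in CON and 1.96, 1.31 and 8.603 CPM in LPS (fold change 3.16, SE 0.98, edgeR adjusted p = 0.247, on at most 126 reads). LTF was called higher when LPS replicate 2 was left out (3.57, SE 0.90, edgeR adjusted p = 0.0394). BDH2, an enzyme proposed to make a mammalian siderophore, was at 34.9, 16.7 and 22.8 CPM in CON and 7.20, 19.0 and 10.1 CPM in LPS, with LPS replicate 2 within the CON range. Its fold change was -1.04 (SE 0.44, edgeR adjusted p = 0.371). SLC22A17, the lipocalin 2 receptor, had a fold change of -0.09 (SE 0.48, edgeR adjusted p = 0.958).

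**Figure D4:**
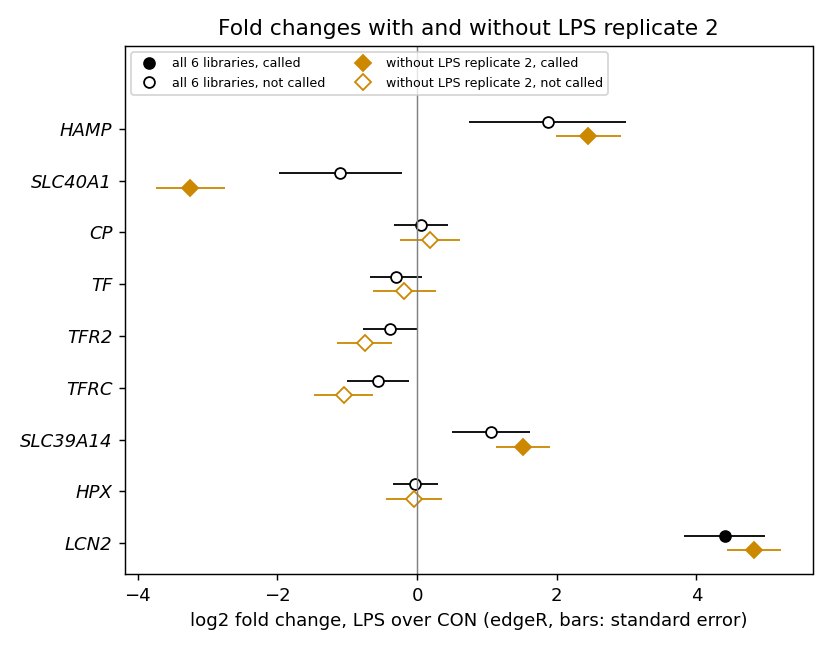
Log2 fold changes (LPS over CON, edgeR) of the 9 genes, with bars for the standard error, for all 6 libraries (black circles) and without LPS replicate 2 (orange diamonds), filled where the gene was called. LCN2 was called in both of these fits, and HAMP, SLC39A14 and SLC40A1 in the one without LPS replicate 2.

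Counted over the 9 genes, 4 had positive and 5 negative fold changes, with a median of -0.02 against 0.01 over all tested genes. Of these, 1 was called higher and 0 lower, and at an unadjusted edgeR p below 0.05 there was again 1 higher and 0 lower, with the table-wide shares given above. LCN2 was the only one of the 9 whose LPS values were all above the CON values, and none had all of them below. Over all tested genes the shares with such orders were 6.52% above and 9.8% below. Leaving out LPS replicate 2, HAMP, SLC39A14 and LCN2 were called higher and SLC40A1 lower. That fit is 1 of 6 that each left out a library, and no other of the 6 called HAMP, SLC39A14 or SLC40A1.

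The opposite position of LPS replicate 2 was shared with other genes of the table. HAMP and SLC39A14 were among 452 tested genes (3.54%) with LPS replicates 1 and 3 above and LPS replicate 2 below all CON libraries. STAT3, SMAD7, FLVCR1 and SLC25A28 of the iron list also had this order. SLC40A1 and TFR2 were among 1200 genes (9.39%) with LPS replicates 1 and 3 below all CON libraries and LPS replicate 2 within their range, as were NCOA4, TMPRSS6 and BDH2. TFRC was among 452 genes (3.54%) with LPS replicates 1 and 3 below and LPS replicate 2 above the CON libraries. TF, HPX, CP and LCN2 had none of these orders. The spread among LPS libraries on log2(CPM + 1) was 3.53 for SLC40A1, 2.64 for SLC39A14, 2.09 for LCN2 and 1.903 for TFRC, and 0.388 for HPX.

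The wider list of iron genes was written from general knowledge, with earlier results of these data known, and holds the 10 genes above. Of its 75 genes, 68 had a row and 62 were tested. Fold changes were positive for 27 and negative for 35, with a median of -0.06. With all libraries 1 was called higher (LCN2) and 0 lower, and at an unadjusted edgeR p below 0.05, 8 were higher and 3 lower. Over all tested genes the shares at that p were 6.18% higher and 6.33% lower. The 8 were STEAP4, BMP6, INHBB, JAK1, SOCS3, ACO1, LCN2 and LTF, and the 3 were STEAP3, HFE and BDH2. DESeq2 called ACO1, INHBB, LCN2, LTF and STEAP4 higher and none of the list lower, against 2.02% and 1.15% of all genes. Without LPS replicate 2, edgeR called 8 higher (ACO1, HAMP, INHBB, LCN2, LTF, SLC39A14, SOCS3 and STEAP4) and 2 lower (HFE and SLC40A1). Of all genes tested in that fit, 3.76% were called higher and 3.45% lower.

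**Figure D5:**
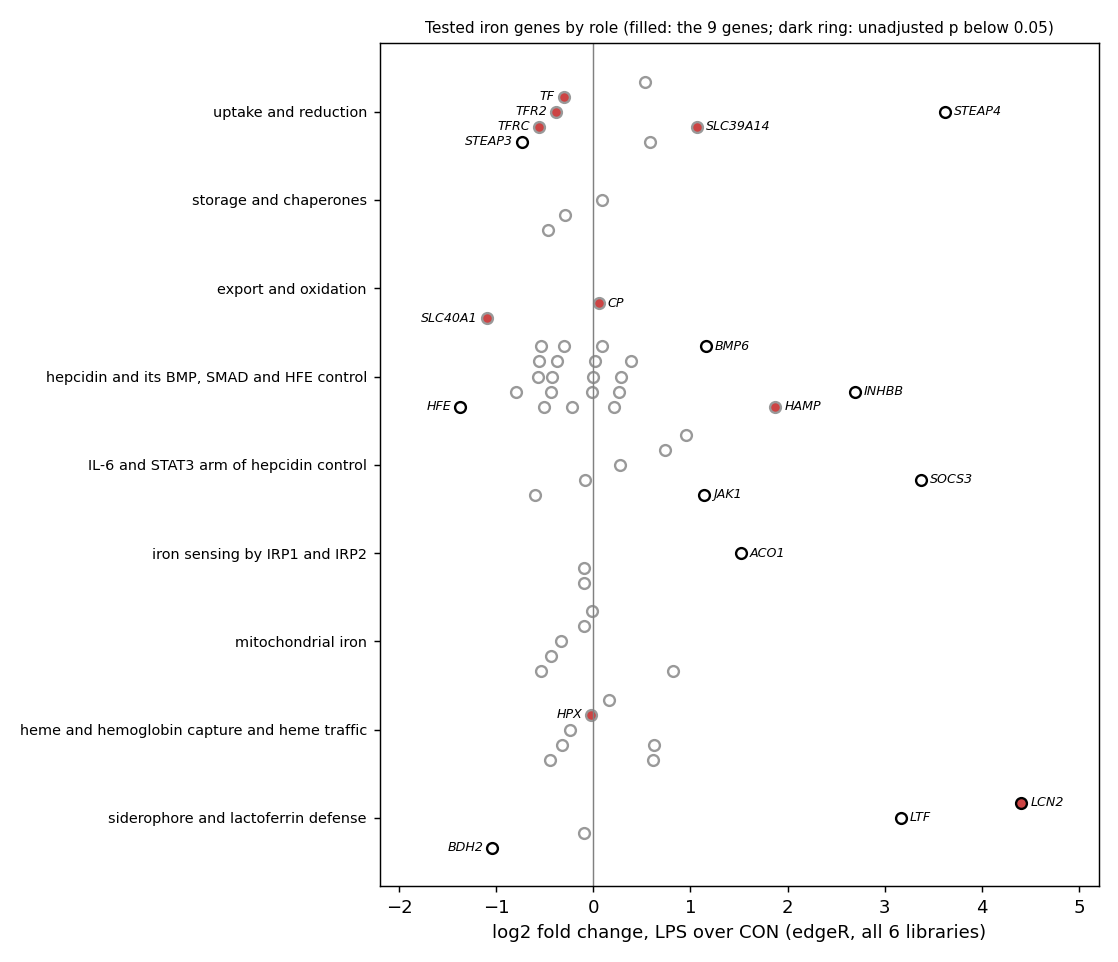
Log2 fold change (LPS over CON, edgeR, all 6 libraries) of each of the 62 tested iron genes, in rows by role; vertical offsets within a row only separate the points. Filled points are the 9 genes described in full, dark rings mark an unadjusted p below 0.05 (8 higher, 3 lower), and only LCN2 (4.41) was called.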

How the data were processed

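RNA-seq of 3 CON and 3 LPS input libraries was used, and the antibody libraries were not analysed here. The authors deposited raw counts of reads per Ensembl pig gene, unnormalized, with coordinates and gene length. A directional kit and Illumina sequencing were used. The submitters' processing notes name cutadapt 1.9.3 and HISAT2 without their roles, and 2 genome builds, neither of them of the pig. The counting program, strand setting, treatment of multi-mapping reads and pig build were not given in the sources used here. The labels list more than 1 sequencing entry each for CON replicates 1 and 2, and the table has 1 column each, matched by group and replicate number. Sample columns left unmapped numbered 0. A name table paired 15029 of 31908 identifiers with a symbol.

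Tests were run in edgeR 4.0.16 under R 4.3.3 (filterByExpr with a minimum count of 10, TMM, robust glmQLFit and glmQLFTest) over 12774 genes, with p-values adjusted over all of them. The standard error was taken as |log2 fold change| over the root of the F statistic. Exact Poisson intervals are at 95% and cover counting error only. Within a group, no pair of libraries was alike within counting error (lowest chi-square 48.6 per gene), and each counted as 1 sample. The script was tested on simulated data. Alternatives were RLE factors, total counts, no filter, DESeq2 1.42.0, voom in limma 3.58.1, at least 10 counts in every library, a replicate block, each library left out in turn, and other fold thresholds. The genes, the wider iron list and the marker lists (neutrophil, Kupffer cell or macrophage, hepatocyte, erythroid, endothelial) were chosen with earlier results of these data known. Named genes were the chosen genes with a row, called genes of the iron list, up to 4 others per role with the smallest unadjusted p, and a set of regulators, receptors and storage genes. The values of 1 gene under this rule are not reported here. The 6 endothelial markers summed to 200.4 to 409.6 CPM in CON and 128.4 to 242.6 CPM in LPS.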

Additional observations from a re-analysis of the deposited data

How the results depend on the processing

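With all libraries 7 genes of the table were called higher and 0 lower (790 and 809 at an unadjusted p below 0.05), including 1 of the 9 iron genes and 1 of the wider iron list, both LCN2. Counts higher and lower were 8 and 1 with RLE factors, 11 and 1 with total counts (which moved the median log2 fold change of all genes from 0.01 to -0.12), 536 and 349 with no filter, 0 and 0 with 10 counts in every library (629 and 647 at an unadjusted p below 0.05), 258 and 146 with DESeq2, and 4 and 2 with limma-voom. Of the 9 genes, 2 were called higher with no filter (HAMP at 1.84 and LCN2), and 0 with 10 counts in every library or limma-voom. Of the wider list, 8 were called higher with no filter, 5 with DESeq2, and 0 with 10 counts in every library or limma-voom. Tested genes numbered 23529 with no filter (67 of the wider list) and 10585 with 10 counts in every library (59 of the wider list). The main fit tested 12774 (62 of the wider list). Leaving out 1 library at a time gave 0 to 512 genes higher and 0 to 470 lower, 0 to 3 of the 9 genes higher and 0 to 1 lower, and 0 to 8 of the wider list higher and 0 to 2 lower, with the highest values all without LPS replicate 2. HPX turned from -0.02 to 0.012 with RLE factors and with DESeq2, 0.03 without CON replicate 2, 0.10 without CON replicate 3 and 0.09 without LPS replicate 1. CP turned from 0.06 to -0.13 with total counts, -0.17 without CON replicate 2 and -0.19 without LPS replicate 3, the lowest with a library left out, the highest being 0.43 without CON replicate 1. The other 7 genes kept their sign in all 13 alternative fits. The fit with a replicate block called 42 genes higher and 9 lower. Deviations of same-numbered libraries correlated at -0.239, 0.219 and 0.0289, and those of different-numbered libraries at -0.251 to 0.22. Same-numbered libraries thus did not stand out, but 3 libraries a group are too few to show that the numbers carry no pairing. Other fold thresholds changed no count. The cause of these differences was not tested. LPS replicate 1 had the fewest counts of the 6 libraries, 4348478.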
